A study of Mus musculus with 8 samples.

Results

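The cells described, from a mouse pancreatic tumor, are named Dmbt1 and Sftpd secretory carcinoma cells, though whether they are carcinoma cells was not tested. They are the 200 cells of the medium-size tumor in which 7 genes, Dmbt1, Sftpd, Pzp, Muc3, Ovol1, Mmp7 and Plet1, had the highest mean level. The level of a gene in a cell was log2(1 + 10000 times its UMIs over all UMIs of that cell), where a unique molecular identifier (UMI) stands for a captured mRNA molecule. Cells with a UMI for 5 or more of 11 macrophage genes were set aside beforehand, which left 2495 cells to choose from and removed 317. The members are 200 of the 2812 cells of this tumor and of the 4345 cells of both tumors. Their scores ran from 2.14 to 3.77 with a median of 2.58. The line fell inside a continuous range, since the highest cell left out also scored 2.14, and the 20 cells just inside and the 20 just outside differed little in Dmbt1, at 6328 and 5850 counts per 1000000 UMIs (CPM). In Lcn2, which is not among the 7 genes, the 20 cells just inside had 1630 CPM and the 20 just outside 2094 CPM. The 7 genes chose the cells, so all levels given for the members against other cells of this tumor are a description, and no test was made on them.

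Both tumors were pancreatic ductal adenocarcinomas freshly taken from untreated KPC mice, which carry the allele LSL-Trp53R172H/+ and a Pdx-1-Cre transgene among their alleles, so that recombination is driven by a promoter active in the developing pancreas and takes place in acinar and islet cells as well as in ducts. The tissue was dissociated with an enzyme kit and the 3′ ends of mRNA were counted in droplets (10x Genomics, v2 chemistry). A medium-size tumor and a large-size tumor were each sequenced as 4 technical replicates, pooled in 1 table, so each tumor is 1 sample and nothing here has a biological replicate. The medium-size tumor had 20301669 UMIs (median of 5456.5 per cell) while 1533 cells of the large-size tumor gave 2239012 UMIs (median 1037). The 5 cell barcodes that occur in both tables are not among the members. Intervals are exact 95% intervals and cover counting error only.

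Dmbt1 encodes a large scavenger-receptor glycoprotein that mucosal epithelium secretes and that binds bacteria, and Sftpd encodes surfactant protein D, a collectin that lung and other mucosal surfaces secrete and that binds sugars on microbes. Ducts of the pancreas, like airway and gut, can switch on such defence proteins, among them lipocalin 2 (Lcn2), the Reg3 lectins and the receptor that carries immunoglobulin A across the epithelium (Pigr), in inflammation and in tumors. Matrilysin (Mmp7) is a protease of secretory epithelium that is present in acinar-to-ductal metaplasia and in pancreatic tumors.

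The members were epithelial by their markers. Of 11 epithelial markers (the keratins Krt7, Krt8 and Krt18, the claudins Cldn3, Cldn4 and Cldn7, with Muc1, Cdh1, Spint2, Elf3 and Tspan8), a member had a UMI for a median of 9, with 5 the lowest and 11 the highest, and 173 of the 200 had at least 8. They were set beside the 2024 other epithelial cells of the tumor, which passed the same macrophage limit and had at least 5 of the 11 markers. By the clusters described below, 443 of these lay in a cluster led by Gkn1 and 318 in one led by Mcpt8 and Cldn6. Another 267 lay in one led by Ube2c, 246 in one led by Yap1 and 145 in one led by Inhba. A gene lower in the members can thus be a gene of a single such cluster. The summed level of the 11 markers was 11606 CPM in the members and 11696 CPM in the other epithelial cells, where CPM is the number of UMIs of a gene or list per 1000000 UMIs of the group. Within the list Krt7 was lower in the members (531 against 1497 CPM), while Cldn3 was higher (686 against 188 CPM). Whether they are carcinoma cells was not tested, because no tumor allele is read out in the tables and a non-malignant duct cell cannot be told apart from a tumor cell by these values. Members had a median of 4947 UMIs (2722 to 15835) and the other epithelial cells a median of 6238.5.

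Of the 5 defining markers, Lcn2 and Pigr are outside the score. Both had a UMI in 139 of the 200 members (69.5%) and in 8.55% of the other epithelial cells, without thinning to equal depth. In the 200 of those other cells that come next in score it was 47.5%. Dmbt1, Sftpd and Mmp7 are in the score, which largely sets how often they occur together. All 5 markers had a UMI in 113 members, at least 4 of them in 178, and Sftpd with Dmbt1 in 163. Of the 7 genes of the score, 26 members had all, 67 had 6, 68 had 5, 36 had 4 and 3 had 3.

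Dmbt1 ran from 1270 CPM in the lowest member over a median of 6566 to 29244 CPM in the highest, and every member had a UMI for it. In the other epithelial cells its median was 174 CPM, and 64 of them (3.16%) reached the median of the members. Summed over cells, Dmbt1 was 10.5-fold higher in the members (interval 10.2 to 10.8), which the choice of the cells fixes. Sftpd was found in 163 members, from 0 over a median of 370 to 2651 CPM, and its sum was 490 CPM against 40.3 CPM. Mmp7 ran from 0 over a median of 1794 to 21042 CPM and was found in 192 members. These 3 genes helped to choose the cells, so their height over the other cells is no finding.

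Lcn2 and Pigr were not used in the choice. Both are, like the genes of the score, among the leading genes of the cluster that holds 134 of the members. Their ratios are therefore a description too, and no independent support for the choice. Lcn2, which binds the siderophores of bacteria, ran from 0 over a median of 2142 to 23249 CPM and had a UMI in 181 members. Its sum was 3077 CPM in the members and 296 CPM in the other epithelial cells, a ratio of 10.4 (9.94 to 10.8), and 102 of the 2024 others (5.04%) reached the median of the members. Pigr ran from 0 over a median of 318 to 2073 CPM, had a UMI in 150 members, and its sum was 399 against 45.6 CPM, a ratio of 8.75 (7.77 to 9.85). For Pigr, 142 of the others (7.02%) reached the median of the members. So single cells of the 2 groups overlapped for both genes, and cells with no UMI for Pigr were found among the members too.

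**Figure D1:**
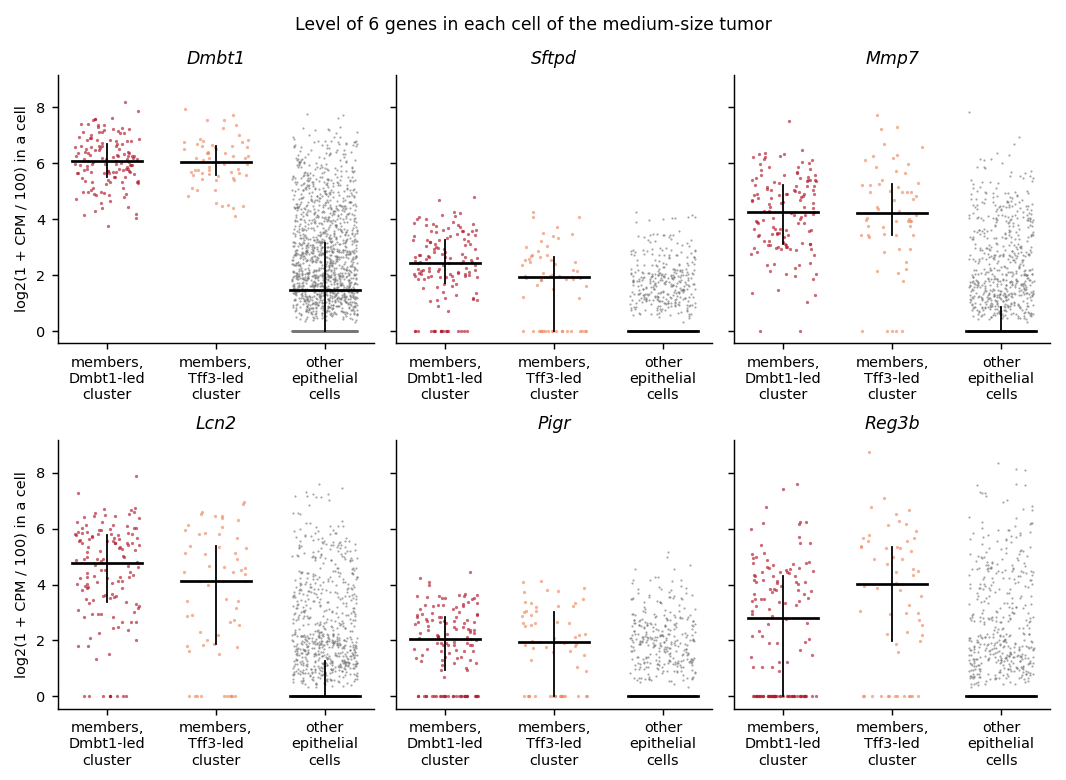
Level of Dmbt1, Sftpd, Mmp7, Lcn2, Pigr and Reg3b in each cell of the medium-size tumor, as log2(1 + CPM / 100) on the vertical axis, for the 134 members in the cluster led by Dmbt1, the 61 members in the cluster led by Tff3 and the 2024 other epithelial cells (5 members of other clusters are left out). Each point is a cell, horizontal bars are medians and vertical bars span the middle 50% of cells. The medians of both sets of members lie above that of the other cells for each gene, the ranges overlap, members without a UMI of Pigr or Reg3b lie at 0, and Reg3b is higher in the members of the Tff3-led cluster.

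To see how far each gene of the score depended on its own place in it, cells were also chosen by the other 6 genes. The left-out gene in the 200 cells so chosen had ratios of 7.79 for Dmbt1, 9.14 for Sftpd, 18.2 for Pzp, 5.69 for Muc3, 8.53 for Ovol1, 7.71 for Mmp7 and 7.42 for Plet1. Between 162 and 189 of the 200 cells were shared with the members. All 7 genes are among the 10 that lead 1 cluster of these same cells, so these ratios are a description and no independent support for the choice. Pzp encodes a broad inhibitor of proteases, Muc3 a membrane mucin, Plet1 a surface protein of epithelial progenitors and Ovol1 a zinc finger repressor of epithelial cells.

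Shares of cells with a UMI depend on depth, so they were compared after each cell had been thinned to 2500 UMIs, which every cell of the groups named here reached. Free RNA in the droplets also gives UMIs. Thinning does not remove these, and their part in the shares was not tested. After thinning, Sftpd was found in 63.0% of the members (81.5% before), in 8.84% of the other epithelial cells (median depth 6238.5), in 2.99% of the 67 cells of the cluster led by Col1a1, Tagln and Col1a2 (median depth 4361) and in 4.42% of the 317 cells set aside by the macrophage genes (median depth 3847). Pigr was found in 60.5% of the members (150 of 200 cells before), in 9.54% of the other epithelial cells and in 2.99% of the Col1a1-led cells. Lcn2 was found in 84.5% of the members (90.5% before), in 21.7% of the other epithelial cells and in 31.6% of the 38 cells of the cluster led by Plvap and Fabp4 (median depth 4842). It was found in 14.9% of the Col1a1-led cells. The other epithelial cells were not alike in Lcn2, since the 200 cells next in score, which are among them, had it in 67.5% after thinning. Dmbt1 was found in 100% of the members, in 45.6% of the other epithelial cells, in 39.5% of the Plvap-led cells and in 23.9% of the Col1a1-led cells.

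Over all genes with at least 200 UMIs in both groups together (7210 of 27775 rows), 432 were at least 2-fold higher in the members (5.99%) and 722 were at most 0.5 of the level in the other epithelial cells (10.0%). The median ratio over the 7210 genes was 0.952. Of 22 immediate early and heat shock genes, a list written after values had been seen, 11 were higher and 0 lower, and the list summed to 15754 against 8004 CPM (1.97). Its part in the other ratios was not tested. A gene is called higher or lower below by these limits, with no p-value. On the mouse build GRCm38, with GENCODE annotation, Dmbt1 lies at chr7:131032053-131121630 on the plus strand and Sftpd at chr14:41172214-41185149 on the minus strand, and both are protein-coding. The 20 genes with the highest ratio included all 7 genes of the score, of which Pzp led with 31.2. The other 13, in order, were Napsa (12.6), Lcn2, C4b (10.1), Reg3g (9.41), Pigr, Lrg1 (8.73), Reg1 (8.33), Tstd1 (8.10), Reg3b (7.64), Fcgbp (6.92), Ly6d (6.54), Wnt4 (6.46) and Pdzk1ip1 (6.41). Wnt4 encodes a signalling ligand of branching epithelia, Tstd1 a sulfurtransferase, and Pdzk1ip1 a small membrane protein that carcinomas often overproduce. Tstd1 had a UMI in 146 members with a median of 255 CPM, Wnt4 in 126 with a median of 176 CPM (40% after thinning, against 22.4% of the Col1a1-led cells) and Pdzk1ip1 in 109 with a median of 128 CPM. All 20 were also at least 2-fold higher when only the members of the Dmbt1-led cluster, or only those of the Tff3-led cluster, were used.

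Proteins secreted in defence at mucosal surfaces include Dmbt1 and Sftpd, which chose the cells and are left out of the values of the list. Of the other genes 12 passed the filter, and 6 of these were higher and 0 lower, with a median ratio of 1.88 and a summed level of 17130 against 5271 CPM (ratio 3.25, interval 3.20 to 3.30). These 6 were Lcn2, Reg3g, Reg3b, Ltf, Pglyrp1 and Wfdc18. Wfdc18 had a UMI in 67 members, and 10 cells held 56.0% of its UMIs. Reg3g, a lectin that kills Gram-positive bacteria, had a median of 822 CPM per member, a highest value of 26982 CPM and a sum of 1646 against 175 CPM. Reg3b, its close relative, ran from 0 over a median of 845 to 42687 CPM and had no UMI in 62 members. The Reg genes are near copies of each other, so reads that fit more than 1 of them may have been lost or split in counting. Lactoferrin (Ltf), which binds iron, was 5.46-fold higher (4.95 to 6.02), and Pglyrp1, which binds bacterial peptidoglycan, 3.90-fold (3.79 to 4.02). Other members of the list stayed within the limits, as Wfdc2 did at a ratio of 1.60, Slpi at 1.17 and Saa3 at 0.664.

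Of complement genes, 4 of 7 tested were higher and 0 lower. C4b, a component of the classical and lectin pathways, was found after thinning in 34% of the members (48.5% before), 4.74% of the other epithelial cells, 20.9% of the Col1a1-led cells and 19.9% of the cells set aside by the macrophage genes. Its highest value in a member was 2054 CPM, and its sum was 211 against 20.9 CPM, a ratio of 10.1 (8.52 to 11.9). Clu, which blocks the membrane attack complex, stood at 24122 against 11332 CPM (2.13), and Cd55, which breaks up the convertases, at 2.54. C3 itself was at 1.88 and factor B (Cfb) at 1.06. Serping1, an inhibitor of the first component, had a ratio of 2.04 with an interval of 1.47 to 2.79, and of 1.91 with the members of the Tff3-led cluster alone.

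Of genes for immunoglobulin transport and oxidant defence, 3 of 7 tested were higher and 1 lower. Duox2 and Duoxa2, the oxidase that makes hydrogen peroxide at the apical surface and its maturation factor, were 5.50-fold and 3.90-fold higher, and Pigr was the third gene called higher. Jchain, which plasma cells add to the immunoglobulin that Pigr carries, had 3 UMIs in the 200 members and a ratio of 0.204 (0.0416 to 0.603). Against the non-members of the Tff3-led cluster alone, the list for transport and oxidant defence summed to a ratio of 0.848. Of genes that answer to interleukin 17 or NF-kB, 2 of 17 tested were higher and 4 lower, with a median ratio of 1.16. The receptor subunit Il17re was at 2.89 (2.34 to 3.53) and Icam1 at 2.46, while the neutrophil chemokines Cxcl1 and Cxcl5 were at 0.247 and 0.294. Lrg1, a secreted glycoprotein of the acute phase, was in neither list, and had a median of 368 CPM. After thinning it had a UMI in 60.5% of the members (74.5% before), in 10.2% of the other epithelial cells and in 32.5% of the cells set aside by the macrophage genes, and in 76.3% of the Plvap-led cells.

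The 250 bases before the start of Pigr, Reg3g, Fcgbp and Pdzk1ip1 are shown, since these are the genes of the 20 that are outside the score and whose window was found and holds no annotated exon. The windows come from RefSeq on GRCm38.p6, which was matched by symbol for 14 of the 20 genes and not for Dmbt1, Sftpd, Ovol1, Napsa, C4b and Ly6d. They are chr1:130826434-130826683 on the plus strand for Pigr, chr6:78468875-78469124 on the minus strand for Reg3g, chr7:28070986-28071235 on the plus strand for Fcgbp and chr4:115088458-115088707 on the plus strand for Pdzk1ip1. Each is written 5′ to 3′ in the direction of the gene, which begins at the base after the last one shown. Capitals mark matches to an ETS motif (AGGAAG) or the NF-kB motif, on either strand.
Pigr: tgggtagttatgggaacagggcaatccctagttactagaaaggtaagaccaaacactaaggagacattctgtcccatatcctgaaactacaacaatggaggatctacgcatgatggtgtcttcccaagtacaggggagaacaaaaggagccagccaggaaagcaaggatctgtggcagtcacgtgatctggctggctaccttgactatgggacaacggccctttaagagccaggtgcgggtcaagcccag
Reg3g: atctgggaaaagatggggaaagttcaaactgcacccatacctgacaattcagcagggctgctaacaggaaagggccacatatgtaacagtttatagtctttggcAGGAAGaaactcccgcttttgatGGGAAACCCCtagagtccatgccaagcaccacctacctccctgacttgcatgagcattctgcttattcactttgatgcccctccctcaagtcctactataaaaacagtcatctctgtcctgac
Fcgbp: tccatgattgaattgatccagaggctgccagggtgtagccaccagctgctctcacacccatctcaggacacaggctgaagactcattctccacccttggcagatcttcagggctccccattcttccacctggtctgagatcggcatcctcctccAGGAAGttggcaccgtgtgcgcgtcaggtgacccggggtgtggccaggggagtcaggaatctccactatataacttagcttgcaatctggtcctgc
Pdzk1ip1: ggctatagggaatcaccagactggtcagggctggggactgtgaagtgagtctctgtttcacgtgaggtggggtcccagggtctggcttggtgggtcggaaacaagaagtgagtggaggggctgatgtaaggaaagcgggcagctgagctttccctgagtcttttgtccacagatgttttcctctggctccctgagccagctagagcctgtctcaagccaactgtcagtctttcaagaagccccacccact
Reg3g holds an ETS match 146 to 141 bases before the start and an NF-kB match at 123 to 114, and Fcgbp an ETS match at 96 to 91. The motifs do not overlap each other in these windows. An AP-1 motif (TGANTCA), a C/EBP motif (TTGCNNAA) and a STAT motif (TTCNNNGAA) were searched too and are not in these windows. Over all 14 windows, 3 held AP-1, 3 C/EBP, 5 ETS, 1 NF-kB and 1 STAT, while of 32536 windows of the same length 6.73% held AP-1, 9.57% C/EBP, 29.6% ETS, 3.92% NF-kB and 7.04% STAT. A match is a run of letters and says nothing of binding.

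Proteases and their inhibitors went in both directions. Leaving out Pzp and Mmp7, which chose the cells, 5 of 25 tested genes were higher, among them Tmprss4 (3.00), a membrane serine protease, and Serpinb1a (2.89), an inhibitor of neutrophil elastase, and 6 were lower. Mmp10, a stromelysin, had 2 UMIs in the members and a ratio of 0.0922 (0.0111 to 0.336), Serpinb6b stood at 0.251 and Timp1, an inhibitor of metalloproteases, at 0.272. Mmp13 and Mmp14 were also called lower.

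Mucins, trefoil factors and gastrokines divided sharply. Leaving out Muc3, which chose the cells, Tff3 (5.46), Muc4 (4.01) and Muc3a (2.14) were higher in the members, and lower were Gkn2, Gkn3, Gkn1, Tff1 and Muc6. With the members of the Dmbt1-led cluster alone Muc3a was at 1.88. Muc3 and Muc3a are alike, so the split of reads between them is uncertain. Tff3, the trefoil factor of intestinal goblet cells, had a UMI in 153 members, a median of 921 CPM and a highest value of 77572 CPM. Muc6 had 3 UMIs (ratio 0.0900, interval 0.0185 to 0.265). Gkn1, Gkn2 and Tff1 are secreted by the pit cells of the stomach. Gkn2 was 41.7-fold lower (28.2 to 64.4), with 22.0 against 916 CPM, Gkn1 was 15.6-fold lower and Tff1 12.3-fold lower. Summed over the list without Muc3, the members had 4512 CPM and the others 8230 CPM, and the median ratio of its 10 tested genes was 0.604.

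**Figure D2:**
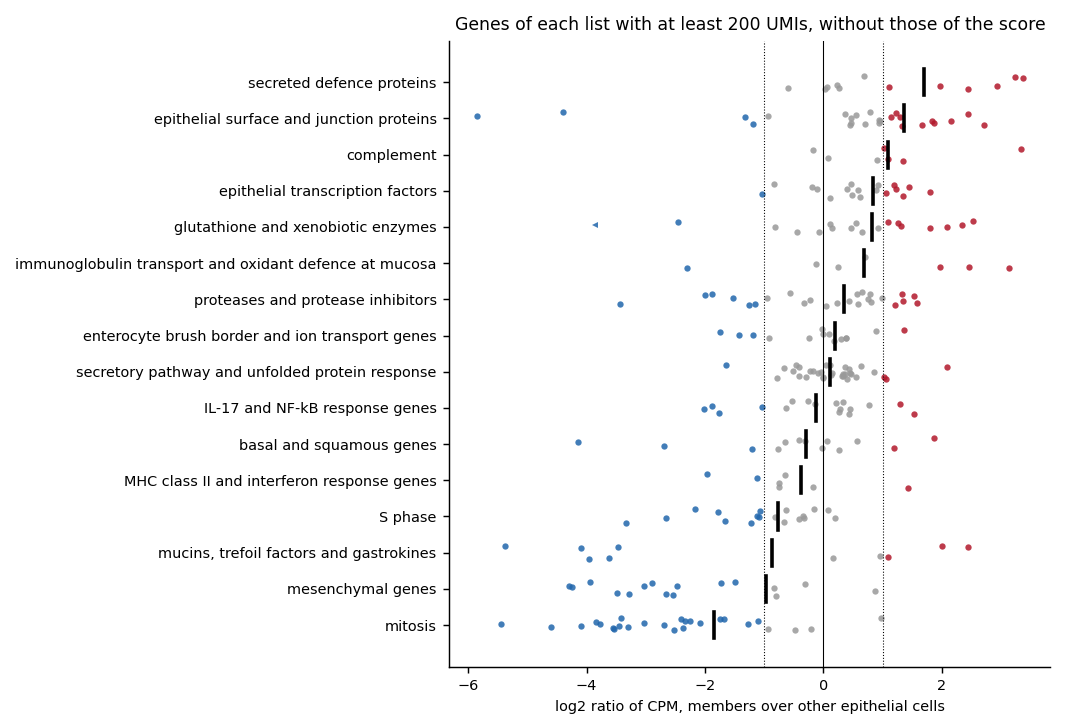
Ratio of the members to the other epithelial cells on a log2 scale (horizontal axis) for each tested gene of 16 gene lists (rows), without the genes of the score, in red where higher at 2-fold, in blue where lower, and in grey between the dotted lines. The triangle is a gene with no UMI in the members, drawn at its bound, and black bars are the ratios of the summed lists. The bar of the secreted defence proteins is at 3.25, that of the mesenchymal genes at 0.512 and that of mitosis at 0.277, before the log2 scale.

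Of epithelial transcription factors other than Ovol1, which chose the cells, 6 of 18 tested were higher and 1 lower. These included Klf5 (2.74), Hes1 (2.55), a target of Notch, Esrp1 (2.34), which sets epithelial splicing, Ehf (2.29) and Elf3 (2.08). Spdef, a factor of goblet cells, was lower at 0.485, and at 0.521 with the members of the Dmbt1-led cluster alone. Sox9, Gata6, Pdx1 and Hnf4a had ratios of 1.51, 1.39, 1.33 and 0.929. For Hes1 the height lay with the members of the Dmbt1-led cluster, at 589 CPM, since the 61 members of the Tff3-led cluster had 152 CPM and the other epithelial cells 185 CPM. Of the 6 genes, Ehf, Elf3, Klf5 and Hes1 were below 2-fold with the members of the Tff3-led cluster alone, and Esrp1 was also at least 2-fold higher with them.

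Of 33 tested genes of the secretory pathway and the unfolded protein response, 3 were higher and 1 lower, and the median ratio was 1.10. Xbp1, the factor that enlarges the endoplasmic reticulum of secretory cells, was 4.26-fold higher (3.70 to 4.88), with a median of 205 CPM and a UMI in 133 members. Kdelr3 was at 2.09 and Creb3l1 at 2.05, while Creb3l4 had a ratio of 0.318. With the members of the Dmbt1-led cluster alone Kdelr3 was at 1.78 and Creb3l1 at 1.94, which leaves Xbp1 as the gene of this list at 2-fold or more. The chaperone Hspa5 stood at 1.08 and the mucin-folding enzyme Agr2 at 0.633.

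Among surface and junction proteins other than Plet1, which chose the cells, 10 of 25 tested genes were higher and 4 lower, with a median ratio of 1.92. Ly6d and Ly6k, small proteins held by a lipid anchor, had ratios of 6.54 and 5.42, and Prom1, a marker of stem-like cells, 3.55. Ly6d had a UMI in every member, from 189 CPM in the lowest over a median of 6744 to 62760 CPM in the highest. Among the claudins that seal tight junctions, Cldn3, Cldn4 and Cldn23 were higher, whereas Cldn18, the claudin of stomach and lung, had 1 UMI in the members against 828 in the others (ratio 0.0172, interval 0.000435 to 0.0962) and Cldn6, an embryonic claudin, was 21.0-fold lower. Psca was lower at 0.399, and at 0.584 with the members of the Tff3-led cluster alone. Of the 2 sets of members Cldn4 was high in that of the Dmbt1-led cluster, with 275 CPM there and 27.6 CPM (8 UMIs) in that of the Tff3-led cluster, against 89.7 CPM in the other epithelial cells. Against the non-members of the Tff3-led cluster alone, the list with Plet1 left in summed to a ratio of 0.893.

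Of glutathione and xenobiotic enzymes, 7 of 18 tested were higher and 2 lower. Gstt1 (5.76), Mgst1 (5.09) and Gsta3 (4.26), which couple glutathione to reactive compounds, led with Cyp2s1 (3.48). Aldh3a1 had 0 UMIs in the members and 619 in the others, so it was at least 14.5-fold lower by the limit of 3 UMIs over the group, and Aldh1a3 was 5.46-fold lower. Against the non-members of the Tff3-led cluster alone, the list of these enzymes summed to a ratio of 0.753. Among the 10 genes with the lowest ratio over all tested, Stra6, the receptor for retinol-binding protein, also had 0 UMIs, against 779, and was at least 18.2-fold lower. Acan, a cartilage proteoglycan, and Serpinb9b were at 0 too, at least 11.5-fold and 9.31-fold lower. Prkg2, a kinase that cyclic GMP activates, had 2 UMIs against 1223 (ratio 0.0233, interval 0.00282 to 0.0844), and Klra4 had 1 UMI against 610 (ratio 0.0234, interval 0.000590 to 0.131). Gkn2, Cldn18, Cldn6 and Cenpf complete these 10. Aldh3a1, Serpinb9b, Prkg2 and Cldn18 are among the leading genes of the Yap1-led cluster, which holds 246 of the other epithelial cells. Gkn2, Cldn6 and Cenpf are among those of clusters that hold 443, 318 and 267 of them.

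Genes of dividing cells were lower. Of 26 tested genes of mitosis, 22 were lower and 0 higher, and their list stood at 418 against 1508 CPM, a ratio of 0.277 (0.253 to 0.304), and of 18 genes of S phase 9 were lower and 0 higher. Ube2c, for the degradation of mitotic proteins, had 3 UMIs in all 200 members (ratio 0.0412, interval 0.00848 to 0.121), and Top2a, which untangles chromosomes, had 9 UMIs and was 5.30-fold lower. Cenpf had 1 UMI against 624 in the others (ratio 0.0228, interval 0.000577 to 0.128). Of the other epithelial cells, 267 lay in a cluster led by Ube2c, Birc5, Cenpf and Top2a. Against the 200 cells next in score the mitosis list stood at 0.614. No cell was assigned a phase.

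Mesenchymal genes were lower too, with 12 of 16 tested lower and 0 higher and a median ratio of 0.165. Vim, the intermediate filament of mesenchymal cells, had a UMI in 7.50% of the members and in 54.0% of the other epithelial cells after thinning (16.0% and 66.1% before), with 44.8 against 854 CPM, 19.0-fold lower. Lgals1 was 15.5-fold lower, S100a4 11.2-fold and Igfbp7 7.46-fold. Loxl2, a collagen-crosslinking enzyme, had 1 UMI in the members (ratio 0.0507, interval 0.00128 to 0.285). Fn1 was within the limits at 1.83. For the list as a whole the ratio was 0.512, and S100a6, at a ratio of 0.573, gave 7233 of the 10027 CPM that the list summed to in the members. Of the other epithelial cells, 145 lay in a cluster led by Inhba and Bmp2. Against the 200 cells next in score the mesenchymal list stood at 0.777.

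Other lists gave less. Of basal and squamous genes 2 of 13 were higher (Sfn at 3.65 and Sprr2a3 at 2.29, with 59.6% of its UMIs in 10 cells, and at 1.11 and 5.87 with the members of the Dmbt1-led and the Tff3-led cluster alone) and 3 lower (Tnc with 1 UMI, ratio 0.0563, interval 0.00142 to 0.317, Sprr1a at 0.154 and Areg at 0.434). Of genes of brush border and ion transport 1 of 14 was higher (Tmem45b, 2.57) and 3 lower (Aqp5, Cftr and Cdhr5, at 0.297, 0.374 and 0.436). Of genes for MHC class II and interferon response 1 of 7 was higher (Psmb8, 2.69) and 2 lower (Bst2 at 0.254 and Cd74 at 0.462). With the members of the Tff3-led cluster alone Aqp5, Cftr, Cdhr5 and Cd74 were at 0.594, 0.536, 1.14 and 0.652. Areg was at 0.552 with those of the Dmbt1-led cluster alone. Of 8 markers of pancreatic duct, 3 were higher, with Ambp (4.59) and Slc4a4 (2.64) among them, and Cftr and Aqp5 were lower, while Krt19 and Sox9 were at 1.43 and 1.51.

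Markers of other cells were mostly absent. Of 11 markers of lung alveolar type 2 and club cells, 9 had 0 UMIs in the members, Sftpa1, Sftpb, Sftpc and Nkx2-1 among them, so the height of Sftpd came with Napsa, an aspartic protease also found in lung and kidney, and Abca3 (2.24) but without the other lung markers. After thinning, Napsa had a UMI in 32% of the members, in 3.75% of the other epithelial cells and in 22.4% of the cells set aside by the macrophage genes (47.0%, 7.07% and 32.5% before). Of 10 acinar markers 7 had 0 UMIs, with Cela1 at a ratio of 3.04, and of 12 intestinal markers 7 had 0 UMIs and Fcgbp, a protein bound to mucus, was high. The macrophage list summed to 574 CPM in the members and 276 CPM in the other epithelial cells. Cd14 made up 447 of its 653 UMIs, and the other 10 genes of the list stood at 181 and 156 CPM, with Adgre1 at 0 UMIs in the members. Endothelial markers summed to 25.5 against 69.1 CPM, granulocyte markers to 87.9 against 90.6 CPM, tuft cell markers to 37.8 against 121 CPM and mesothelial markers to 367 against 355 CPM, nearly all of it from Msln. Mast cell markers had 15 UMIs in the members, at 13.2 against 6.35 CPM (ratio 2.08, interval 1.12 to 3.58), and T cell markers 6 UMIs, at 5.27 against 1.73 CPM (3.05, interval 1.03 to 7.52). The part of such cells in the other ratios was not tested. Fibroblast and red blood cell markers were lower in the members (36.9 against 197 CPM and 36.9 against 192 CPM), and the lists for B cells, smooth muscle, dendritic and endocrine cells had 6 or fewer UMIs each in the members.

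Clustering split the members. With 10 principal components and Seurat's present defaults, the tumor gave 14 clusters. These need not be the clusters of the study, whose methods name the components and leave the rest at defaults. Of the members, 134 fell into a cluster of 227 cells led by Dmbt1, Lcn2, Sftpd and Mmp7, 61 into a cluster of 292 cells led by Tff3, Ly6d, Reg1, Ly6k and Reg3b, and 5 into other clusters. The clusters were made from these genes, so their differences are a description. Of 742 genes with at least 200 UMIs over both sets of members together, 48 were at least 2-fold higher in the Dmbt1-led set (6.47%) and 13 in the Tff3-led set (1.75%). Of the defining markers outside the score, Pigr was at 392 and 403 CPM and Lcn2 at 3310 and 2515 CPM. Dmbt1, at 7676 and 7448 CPM, Mmp7, at 2410 and 3148, and Sftpd, at 542 and 341 CPM, are in the score on which both sets were chosen. C4b was higher in the Dmbt1-led set, with 251 against 121 CPM.

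Higher in the Tff3-led set were Tff3 (3.54-fold), Reg1 (3.49-fold), Reg3g (2.80-fold), Agr2 (2.65-fold), Reg3b (2.48-fold) and Ly6d (2.38-fold). Higher in the Dmbt1-led set were genes that cells switch on within minutes of a stimulus or on heat shock, with Fosb at 22.0-fold, Hspb1 at 12.8-fold, Atf3 at 12.6-fold, Egr1 at 7.57-fold and Fos at 6.60-fold. The list of 22 such genes had 15 of 17 tested genes higher in the Dmbt1-led set and summed to 19735 CPM there and 4444 CPM in the Tff3-led set, against 8004 CPM in the other epithelial cells. The 91 cells of the Dmbt1-led cluster that are not members had 19724 CPM. Klf4, Hes1, Cldn4 and Sfn were higher in the same set, and with the Tff3-led members alone Sfn stood at 107 CPM and Icam1 at 10.3 CPM (3 UMIs), against 110 and 21.1 CPM in the other epithelial cells. Of the genes for secreted defence outside the score, Wfdc18 stood at 1.55 with the Dmbt1-led members alone, and the others called higher were at least 2-fold higher with either set alone.

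**Figure D3:**
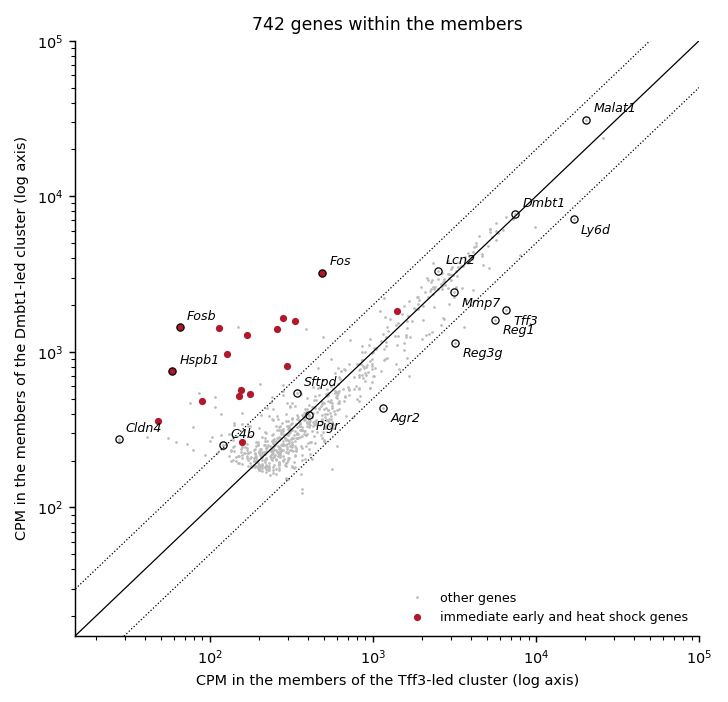
Level of 742 genes in the 134 members of the Dmbt1-led cluster (vertical axis) and in the 61 members of the Tff3-led cluster (horizontal axis), both in CPM on log axes. The solid line marks equal levels, the dotted lines 2-fold differences, and red points genes of the list of immediate early and heat shock genes. Dmbt1, Lcn2, Mmp7, Sftpd and Pigr lie between the dotted lines, while Fosb, Fos and Hspb1 lie above and Tff3, Reg1 and Reg3g below.

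The cells nearest to the members differed from them by degrees. The 200 cells next in score differed by 2-fold in 23 of 1587 tested genes, with 5 higher (0.315%) and 18 lower (1.13%) in the members. Of the 5, Pzp, Mmp7 and Sftpd are genes of the score, by which the cells were ranked, and C4b and Ltf are not. Against the 91 cells of the Dmbt1-led cluster that are not members, 4 of 1125 tested genes were higher in the members (0.356%) and 8 lower (0.711%), and of the 4 Mmp7 and Sftpd are genes of the score. Against the 229 cells of the Tff3-led cluster that are not members, 71 of 1669 tested genes were higher in the members (4.25%) and 29 lower (1.74%), and 5 of the 71 are genes of the score, whose height the ranking fixed. Outside the score C4b (7.72) had the highest ratio, followed by Fosb (7.33), Atf3 and Egr1 (6.16) of the list above. Lcn2 (4.01) and Ltf (3.74) were higher too, further down. Lower were Npy (19.9-fold), Gkn2 (15.8-fold), Tff1 (15.2-fold) and Agr2 (3.19-fold). Pigr, at 1.62, and Reg3b did not reach 2-fold. Against the same 229 cells, with genes of the score left in, 4 of 12 tested secreted defence genes were higher (list ratio 1.44). It was 0 of 11 for glutathione and xenobiotic enzymes (0.753) and 0 of 4 for immunoglobulin transport and oxidant defence (0.848). Surface and junction proteins gave 2 of 15 (0.893). Within the Tff3-led cluster the list of immediate early and heat shock genes summed to 4444 CPM in the members and 5235 CPM in the 229 cells.

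Along the score, genes that it did not use differed step by step. With the members as the first step, followed by the next 200 cells, then 400, 800 and the last 624 of the other epithelial cells, Lcn2 went from 3077 to 1610, 722, 95.8 and 41.2 CPM. Pigr went from 399 to 298, 106, 10.1 and 4.33 CPM, and Napsa from 151 to 95.4, 18.4, 2.87 and 2.17 CPM. Tff3 was highest in the second step, at 4571 CPM, and Ly6d was about level over the first and second, at 9514 and 8968 CPM. In the other direction, Vim went from 44.8 to 102, 368, 794 and 1335 CPM, whereas Gkn1 was highest in the fourth step, at 4271 CPM. Epcam went from 2048 to 581 CPM between the first and last step. The median depth went from 4947 to 7177 UMIs over the same steps, and the part of depth was not tested.

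**Figure D4:**
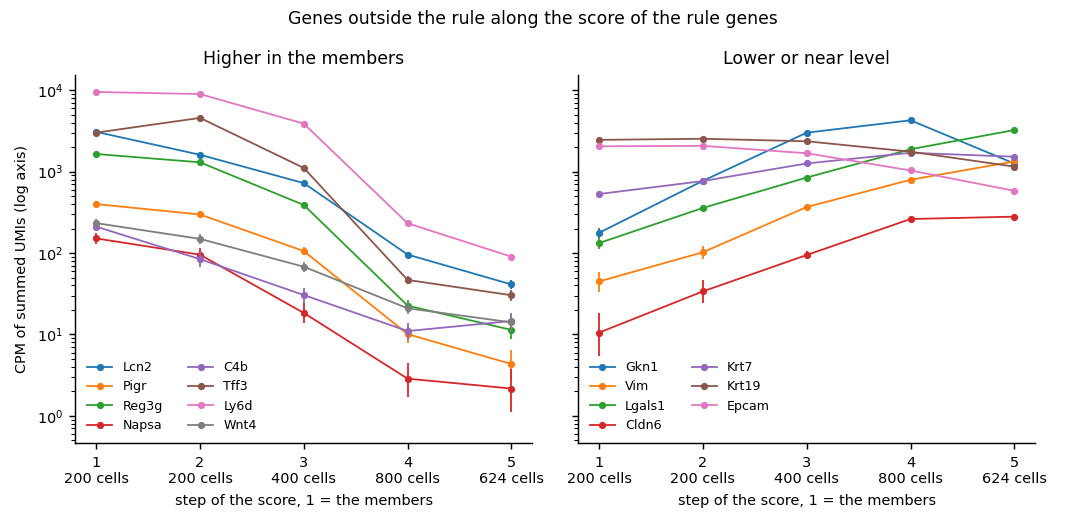
Summed level in CPM (log vertical axis) of genes outside the rule in 5 steps of the score (horizontal axis), where step 1 holds the 200 members and step 5 the epithelial cells with the lowest scores. Vertical bars are exact 95% counting intervals. Lcn2, Pigr and Napsa are lower at each further step, Tff3 is highest in step 2, and Vim and Lgals1 are higher at each further step.

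The members also varied among themselves. Over 768 genes with at least 200 UMIs in the members, the variance between cells was a median of 1.27 times that expected from counting alone, with 153 genes over 2 and 20 over 10. Ctla2a stood apart, since 10 cells held 72.4% of its UMIs and 1 cell held 1205. For Tff3, 10 cells held 47.6%, and for Reg3b 39.0%, whereas for Dmbt1 it was 13.7%. Over the 200 cells Spearman's rho was 0.74 between Reg3g and Reg3b and 0.49 between Lcn2 and Lrg1, none of them a gene of the score. It was -0.37 between Lcn2 and Tff3, also outside the score, and -0.17 between Dmbt1 and Sftpd, which are in it. The cells share a library and differ in depth, so these values are descriptions.

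The same rule was applied to the large-size tumor, which it had not been drawn from, but whose shallow table limits what can be seen. In its 1463 cells with fewer than 5 of the macrophage genes, the 200 with the highest scores had a median of 976 UMIs, and 68 of them had fewer than the 3 epithelial markers asked of the comparison group. Of the 200, 95 had a UMI for only 1 of the 7 genes and 96 for 2. Dmbt1 had 2792 CPM in these cells and 168 CPM in the 607 other epithelial cells (at least 3 of the 11 markers), and Muc3 1237 against 55.9 CPM, so both carried the score and their height is no finding. Sftpd had 7 UMIs in each group and Pzp had 0 in the whole table, so cells with both Dmbt1 and Sftpd were not resolved at this depth.

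Of the 13 genes outside the score that were among the 20 highest in the medium-size tumor, 9 had at least 20 UMIs in the large-size tumor, a minimum chosen after seeing the data, and 6 of them were at least 2-fold higher in its 200 cells, against 14.1% of all 6351 genes at that minimum. With at least 200 UMIs it was 4 of 5, against 8.87% of 1060 genes. These 4 were Pigr with Reg1, Reg3b and Reg3g, which are near copies of each other and not separate cases. The same Reg genes are among the 6 as well. In the large-size tumor the 200 cells had 679 CPM of Pigr against 52.8 CPM, a ratio of 12.9 (9.62 to 17.4), and ratios of 7.15 for Reg3b, 5.92 for Reg1, 4.91 for Reg3g, 7.67 for Tstd1 and 4.72 for Lcn2 (2.27 to 9.69, from 16 and 19 UMIs). Vim was 12.2-fold lower. With the 132 of the 200 cells that had at least 3 epithelial markers, a choice made after seeing the data, Pigr was at 10.3, Reg3b at 5.46, Reg1 at 4.96, Reg3g at 4.58 and Lcn2 at 5.44, and Vim was 11.4-fold lower. Napsa had 0 UMIs in the epithelial cells, which allows up to 2.05 CPM. Ly6d was at 1.61 (1.22 to 2.09), Fcgbp at 1.13 and Pdzk1ip1 at 1.77, the last from 6 and 19 UMIs. Wnt4 had 2 and 6 UMIs (ratio 1.87, interval 0.185 to 10.5), Lrg1 0 and 8 UMIs and C4b 0 and 3. Pglyrp1, at 3.90 in the medium-size tumor, was at 1.01. Tff3 and Gkn1 had ratios on opposite sides of 1, at 0.317 and 2.53 in the large-size tumor. With 1 tumor of each size, a difference between the tumors cannot be told apart from one between mice or libraries.

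**Figure D5:**
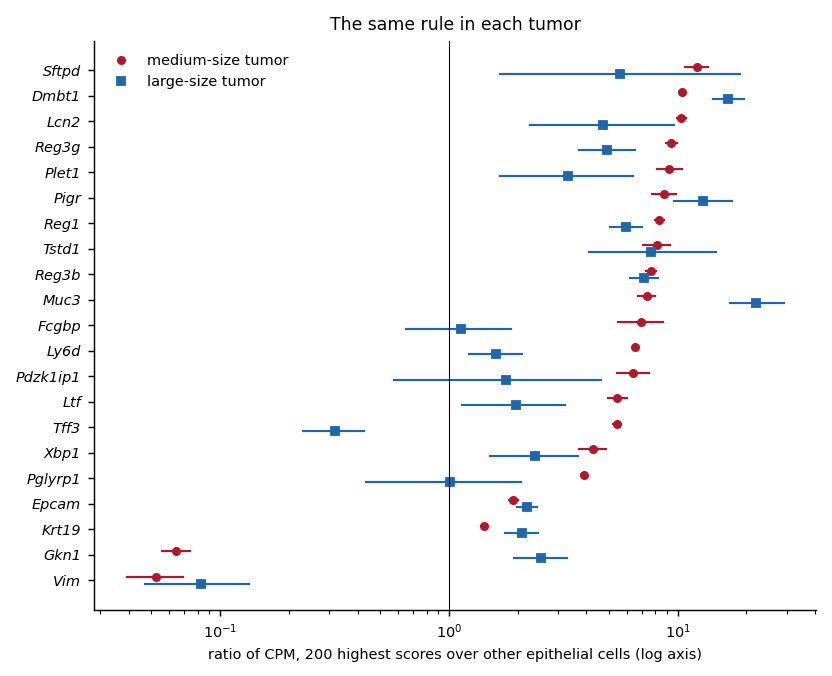
Ratio of summed CPM (log horizontal axis) between the 200 cells with the highest score and the other epithelial cells, for each gene (rows) in the medium-size tumor (red circles) and the large-size tumor (blue squares), for genes with at least 4 UMIs in each group of the large-size tumor. Bars are exact 95% counting intervals. Of genes outside the score, Pigr, Reg3b, Reg1, Reg3g and Lcn2 lie to the right of 1 in both tumors, Vim to the left in both, and Tff3 and Gkn1 on opposite sides.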

How the data were processed

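Single cells of a medium-size and a large-size KPC tumor were measured. The deposited tables hold raw UMI counts of 27775 gene rows, which per the submitters' processing notes the authors made with Cell Ranger against mm10, and the version and annotation are not given in the sources used here. The 4 technical replicates of each tumor were pooled by the authors. Among the gene rows, 39 symbols name more than 1 row and were not looked up by name, and the 13 mitochondrial rows are at 0.

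All cells were kept as deposited, with 2704 to 47440 UMIs per cell in the medium-size and 529 to 11294 in the large-size table. Counts were summed over the cells of a group and given as CPM, with exact Poisson intervals and exact conditional binomial intervals for ratios. Cells are not replicates, so no test was made. The members and the gene lists were chosen with earlier results of these data known. Named are the 7 genes of the score and 5 markers, the 20 highest and 10 lowest ratios, and from each list up to 4 genes at or above 2 and up to 3 at or below 0.5, by ratio (ranked with 1 UMI added to each sum). Others named were chosen after their values were seen, and a few items are not reported here. Clusters came from Seurat 5.3.0 (R 4.3.3) with 2000 variable genes, 10 components and resolution 0.8. Scrublet (in scanpy 1.11.5) called 0 doublets, so it did not work as a filter and none were removed, and the median score was 0.0207 in the members and 0.0444 in the other epithelial cells. TMM scaling came from edgeR 4.0.16. Other steps ran in Python 3.11.15 with numpy 2.4.6, scipy 1.17.1 and pandas 2.3.3, and the calculations were tested on simulated data. Alternatives covered the score, the comparison group, the scaling and the filters.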

Additional observations from a re-analysis of the deposited data

Results flagged for a closer look

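Tff3 and Gkn1 stood on opposite sides of 1 in the 2 tumors. The ratio of the 200 cells with the highest score to the other epithelial cells was 5.455 for Tff3 in the medium-size tumor and 0.3172 in the large-size tumor, and for Gkn1 it was 0.06416 and 2.53. With 1 pooled sample of each tumor the difference was not tested. The 200 cells of the large-size tumor mostly had a UMI for 1 or 2 of the 7 genes, so they are not known to be the same kind of cell.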

How the results depend on the processing

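The ratios of the members to the other epithelial cells were 10.38 for Lcn2, 8.754 for Pigr, 12.14 for Sftpd and 10.47 for Dmbt1, the lists stood at 0.5117 for mesenchymal and 0.2774 for mitosis genes, and 432 genes were higher and 722 lower. Under 19 other settings 140 values were computed. No ratio crossed 1, which the choice of the cells largely fixes for Dmbt1 and Sftpd wherever they are in the score. Of the 140 values, 69 moved by less than the counting interval of the value as reported (for counts of genes, by less than 1.5 times) and 71 moved by more. With the 100 highest scores Dmbt1 was 9.062 and mesenchymal 0.4966, and with the 400 highest Lcn2 was 11.94, Pigr 13.23, Sftpd 14.77, Dmbt1 14.09, mesenchymal 0.5707 and mitosis 0.3503. With the score on thinned counts Lcn2 was 11.2, Dmbt1 10.02 and mitosis 0.3066, and with fewer than 3 macrophage genes allowed mesenchymal was 0.5266. Without Dmbt1 in the score Lcn2 was 11.5, Sftpd 16.7, Dmbt1 7.785 and mesenchymal 0.5312. Without Sftpd in it Sftpd was 9.136 and Dmbt1 11.11, and without Mmp7 Lcn2 was 7.61 and mesenchymal 0.5325. With the score from Pzp, Muc3, Ovol1 and Plet1 Lcn2 was 5.767, Sftpd 8.431, Dmbt1 7.079, mesenchymal 0.5775 and mitosis 0.3325. Against others with 8 epithelial markers 276 genes were higher, Lcn2 was 9.189, Pigr 7.382, Sftpd 9.601, Dmbt1 9.05 and mesenchymal 0.5323, and against all other cells with fewer than 5 macrophage genes Dmbt1 was 11.17 and mesenchymal 0.4998. Against the next 200 cells 5 genes were higher and 18 lower, Lcn2 was 1.911, Pigr 1.341, Sftpd 2.009, Dmbt1 1.662, mesenchymal 0.7771 and mitosis 0.6144. With each cell weighted equally Lcn2 was 8.056, Pigr 6.339, Sftpd 10.06, Dmbt1 8.14, mesenchymal 0.5385 and mitosis 0.3207. With TMM scaling Lcn2 was 9.842, Dmbt1 9.929 and mesenchymal 0.4851, and 363 genes were higher and 820 lower. Without the highest 5% of doublet scores Lcn2 was 10.98 and Dmbt1 10.92. From at least 50 UMIs 949 genes were higher and 1433 lower, and from at least 1 UMI 2422 and 5511, since more genes of few UMIs are then counted. The next 3 settings were chosen after seeing the data. Against the non-members of the Tff3-led cluster 71 genes were higher and 29 lower, Lcn2 was 4.013, Pigr 1.618, Sftpd 3.525, Dmbt1 2.581, mesenchymal 0.6513 and mitosis 0.4117. With the members of the Dmbt1-led cluster alone Lcn2 was 11.17 and mesenchymal 0.4708, and 365 of the 432 genes (84.5%) were still higher. With those of the Tff3-led cluster alone Lcn2 was 8.484, Sftpd 8.452, mesenchymal 0.613, mitosis 0.3106 and 1289 genes were lower, and 240 of the 432 (55.6%) were still higher. Where no construction shows it, the cause of a move was not tested.

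No paired analysis was possible because the technical replicates of each tumor are pooled in 1 table and no test was made. Leaving out a replicate in turn was not run for the same reason, and neither the spread between replicates nor that between mice is known. A value of 3 UMIs is 2.64 CPM in the members and 13.1 CPM in the 200 cells of the large-size tumor, so levels below these were not resolved.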
